A study of Rattus norvegicus with 33 samples.

Results

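Gastrocnemius ablation (GA) was used to overload the rat soleus, and its mean effect over 3 days of sampling was measured across genes, with attention to genes whose difference had the same direction on every day. GA means that the distal insertion of the gastrocnemius, the large fast synergist of the calf, was cut from the Achilles tendon, so that the soleus carried more of the load. The arrays used were the 18 of the 33 in the series that the labels assign to GA or to its sham operation: 9 GA arrays and 9 Sham-GA arrays, with 3 of each on day 1, day 3 and day 7 from the operation. All animals of these 6 groups were female Wistar rats operated on at 22 to 23 weeks of age with an intact spinal cord, and the Sham-GA animals had the same operation except that the insertion was left uncut. Each array was hybridised with RNA of the soleus of a separate animal, none was pooled, and no animal was sampled on more than 1 day. The study's methods describe surgery on the left hindlimb, whereas the series' design text calls the ablation bilateral. The remaining 15 arrays are of rats with a spinal cord transection (SCI), with or without electrical stimulation (ES) of the paralysed muscle, or with a sham transection, and serve here only for a comparison at the end. The measure throughout is the mean of the 3 within-day differences GA minus Sham-GA on the log2 scale, so that 1 unit is a doubling; each day had its own sham group, and the differences of separate days share no array.

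The soleus is a postural muscle made mainly of slow-twitch fibers, which draw their energy from mitochondrial oxidation of fatty acids and glucose. When a synergist is lost, the fibers are stretched and loaded for longer each day, and the muscle grows by adding protein. This growth is known to involve stretch-sensitive proteins of the sarcomere, immediate early transcription factors, ribosomes, division of satellite cells and other mononuclear cells, invading macrophages, and a rebuilding of the extracellular matrix. The regulator Ppargc1a (PGC-1 alpha) and its partners, the nuclear receptors of the PPAR and ERR families, are known to keep the genes of mitochondria and fat oxidation active in slow muscle.

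Markers of the labelled tissue were measured on all arrays. The mean log2 level of the 10 soleus muscle markers ran from 12.54 for Myl2 to 14.07 for Acta1, that of the 8 macrophage markers had a median of 9.85 and that of the 7 fibroblast markers 11.2. The 8 markers of fast muscle such as the neighboring plantaris had a median level of 9.05 and the 8 neutrophil markers 5.59. Levels of different genes are not comparable on these arrays, so the values show that the markers were detected and give no share of fiber or cell types. Because whole muscle was assayed, more cells of a type and more RNA per cell cannot be told apart. In a principal component analysis of the 18 arrays, the first components held 38% and 26.6% of the variance. At 1 and 3 days, 2 sham arrays stood away from their own group. Replicate 1 of Sham-GA 1 day lay at -6 and 35.3 on these components, near the GA 1 day arrays, while the other replicates of its group lay at 35.8 and -2.7 and at 31.8 and -2.5. Replicate 2 of Sham-GA 3 days lay at -16.2 and 2, near the GA 3 days arrays, while its group mates lay at 44.1 and -14.1 and at 34.7 and -11.8. Among the GA arrays, replicate 2 of GA 3 days lay at 8.6 and -4.6, away from its group mates at -21.2 and 2.4 and at -33.9 and 17. The groups also met at 7 days. Replicate 3 of Sham-GA 7 days lay at -29.7 and -20.4, and its group mates at 9.3 and -24 and at -8.1 and -23.1. The GA 7 days arrays lay at -19.3 and -16.5, at -15.4 and -17.7, and at -37.6 and -13.7. The labels give no reason for any of this, the arrays are called by their labels throughout, and whether the labels of the sham arrays near GA hold was not tested. Fits without 1 of the 2 sham arrays that stood away at 1 and 3 days are called the reduced fits below. They are given in the order without replicate 2 of Sham-GA 3 days, then without replicate 1 of Sham-GA 1 day.

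To ask which genes differed between GA and Sham-GA on average over the 3 days, limma was fitted to all 18 arrays with the 6 groups as terms. A gene was counted as changed when its Benjamini-Hochberg adjusted p was under 0.05 and its mean difference was at least 1.5 fold. By this rule no gene was changed: 0 of 14451 genes (0%), with a lowest adjusted p of 0.166, although 2782 genes (19.3%) had an unadjusted p under 0.05, 1151 of them higher (7.96%) and 1631 lower (11.3%) after GA. Leaving out replicate 2 of Sham-GA 3 days gave 493 changed genes, 268 higher (1.85%) and 225 lower (1.56%). Leaving out replicate 1 of Sham-GA 1 day gave 344 changed genes, 174 higher (1.20%) and 170 lower (1.18%). These lists shared 240 genes, which is 48.7% of the longer list and 69.8% of the shorter, 86 of them higher and 154 lower. Leaving out replicate 2 of GA 1 day gave 5 changed genes, all higher, and leaving out any of the other 15 arrays gave none. The calls of the mean effect thus rested on single arrays of 3 animals a group. The 2 sham arrays of the reduced fits were chosen after each array had been left out in turn, because their omission moved the count most. Both lay near the GA arrays, so leaving either out favored larger differences and lower adjusted p values. The values below are described for all 18 arrays. The counts and adjusted p values of the reduced fits beside them carry that choice and are a description, not added evidence.

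**Figure D1:**
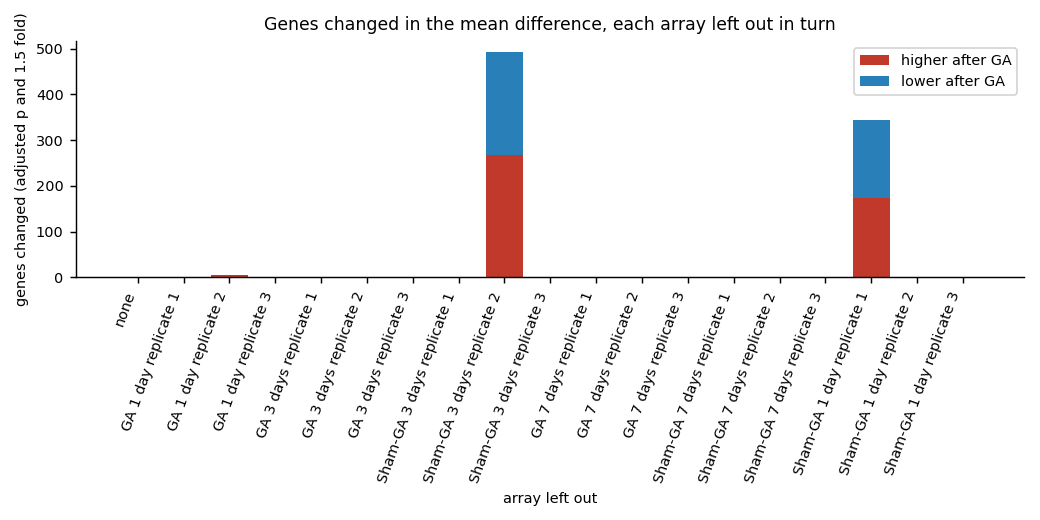
Number of genes changed in the mean difference GA minus Sham-GA (y axis; adjusted p under 0.05 and at least 1.5 fold) when the array named on the x axis was left out of the fit; red marks genes higher and blue genes lower after GA. All arrays together gave 0 genes, leaving out replicate 2 of Sham-GA 3 days gave 493, and leaving out replicate 1 of Sham-GA 1 day gave 344.

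The difference had the same sign on all 3 days for 5389 genes (37.3%), 2379 of them higher (16.5%) and 3010 lower (20.8%) after GA. Of these, 324 also had an unadjusted p under 0.05 and a mean difference of at least 1.5 fold, 148 higher (1.02%) and 176 lower (1.22%). The genes named next are the 12 with the highest and the 12 with the lowest mean difference among genes of 1 sign with an unadjusted p under 0.05. They were chosen after their values were seen, because no gene met the rule for changed genes, so their values are a description. The last gene on the positive side was Zfp367 at 1.04, and the next one left out was Gja1, also at 1.04. On the negative side the last was Adhfe1 at -1.04, and the next was Padi2 at -1.03.

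Ankrd1, a stretch-responsive ankyrin repeat protein that binds titin and also enters the nucleus, had the highest mean difference, 1.81 ± 0.47 (SE, 18 arrays), which is 3.51 fold. Its log2 level at 1 day was 13.37, 12.23 and 13.13 after GA and 12.30, 10.51 and 9.66 after the sham operation. At 3 days it was 12.13, 10.10 and 12.58 against 9.40, 11.28 and 8.89. At 7 days it was 9.71, 11.95 and 11.41 against 9.25, 10.28 and 8.76. The group means of Ankrd1 were thus apart by 2.09, 1.75 and 1.59 in turn, yet the groups overlapped on every day, and the highest sham arrays at 1 and 3 days were the arrays that stood away from their groups. The limma adjusted p was 0.166 with all arrays, 0.028 without replicate 2 of Sham-GA 3 days and 0.032 without replicate 1 of Sham-GA 1 day.

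Atf3, a stress-induced transcription factor of the ATF/CREB family, had a smaller mean difference, 1.16 ± 0.20, but one of the smallest errors among the 24 genes. Its level at 1 day was 11.06, 10.17 and 11.28 after GA and 9.25, 8.57 and 8.55 after the sham operation, with no overlap. At 3 days the values were 9.81, 8.71 and 8.89 against 8.49, 8.90 and 8.30, and at 7 days they were 10.15, 9.87 and 9.64 against 8.59, 8.85 and 9.66. The difference was 2.05 at 1 day, 0.57 at 3 days and 0.86 at 7 days, so that it was highest on the earliest day and the groups overlapped on the later days. Hbegf, a ligand of the epidermal growth factor receptor, had the same order of days, at 2.14, 0.61 and 0.76, with a mean of 1.17 ± 0.32.

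Mmp13, a collagenase, and Cxcl13, a chemokine that draws B cells, had higher differences on the later days. The difference of Mmp13 was 0.40 at 1 day, 2.12 at 3 days and 2.89 at 7 days, with a mean of 1.80 ± 0.47. Its level at 3 days was 9.72, 5.62 and 5.54 after GA and 4.55, 5.51 and 4.47 after the sham operation, so that the 3 day value rested mainly on replicate 1. At 7 days it was 9.31, 7.41 and 7.98 against 5.03, 4.97 and 6.04, with all GA arrays high. Cxcl13 differed by 0.69, 1.52 and 2.89, with a mean of 1.70 ± 0.42. Its 7 day level was 11.10, 8.37 and 10.11 after GA and 5.57, 7.33 and 8.03 after the sham operation. The test of whether these differences changed between days gave limma adjusted p values of 0.744 for Mmp13 and 0.748 for Cxcl13, so a change with time was not shown for either gene.

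The other genes of the positive group had mean differences between 1.04 and 1.65. B3galt2, a galactosyltransferase of the Golgi, differed by 1.65 ± 0.33, with values of 2.28, 0.98 and 1.70 on successive days. Mybph, a myosin-binding protein of the thick filament, differed by 1.18 ± 0.34 with the narrowest span of days among the 12, from 0.96 to 1.35. The remainder were Gprc5a, an orphan receptor (1.12 ± 0.33), the neuronal pentraxin Nptx2 (1.10 ± 0.36), the beta-tubulin Tubb6 (1.06 ± 0.39), Steap1, of a family of metalloreductases (1.04 ± 0.36), and the zinc finger protein Zfp367 (1.04 ± 0.33). Of the 12, all but Nptx2 were among the changed genes when replicate 2 of Sham-GA 3 days was left out, and all but Nptx2 and Steap1 when replicate 1 of Sham-GA 1 day was left out; Nptx2 then had adjusted p values of 0.069 and 0.056.

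**Figure D2:**
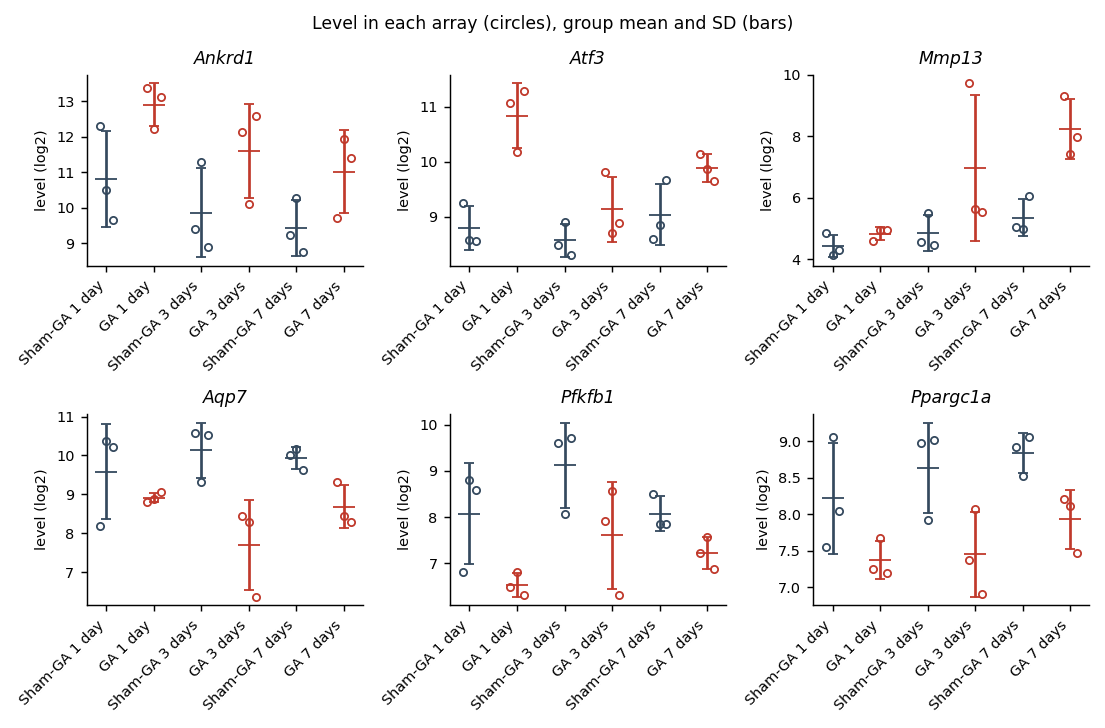
Log2 level (y axis) of 6 genes in each of the 18 arrays (circles; red, GA; dark blue, Sham-GA) with the mean and SD of each group of 3 (bars), by group along the x axis. In Ankrd1 the highest sham array at 1 day (12.30) lies above the lowest GA array (12.23), whereas in Atf3 the lowest GA array at 1 day is at 10.17 and the highest sham array at 9.25.

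The gene with the lowest mean difference was Aqp7, an aquaglyceroporin that passes glycerol, at -1.45 ± 0.33, which is 2.72 fold lower after GA. Its log2 level at 1 day was 8.82, 8.89 and 9.05 after GA and 8.18, 10.36 and 10.21 after the sham operation. At 3 days it was 8.44, 8.30 and 6.37 against 10.56, 9.31 and 10.52, and at 7 days 9.32, 8.43 and 8.30 against 10.00, 10.17 and 9.62. All GA arrays of Aqp7 were below all sham arrays at 3 and 7 days, and at 1 day the sham replicate that stood away from its group was the lowest of the 6. Pfkfb1, which makes and breaks down fructose-2,6-bisphosphate, the activator of glycolysis, differed by -1.54, -1.53 and -0.85 with a mean of -1.31 ± 0.33. Its level was 6.48, 6.82 and 6.30 after GA against 6.81, 8.81 and 8.59 at 1 day, 7.92, 8.57 and 6.32 against 9.60, 8.06 and 9.72 at 3 days, and 7.21, 7.57 and 6.88 against 8.51, 7.85 and 7.86 at 7 days. The groups were apart for Pfkfb1 only on the last day.

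Among the other genes of the negative group were 2 membrane-bound carbonic anhydrases, Car14 (-1.25 ± 0.30) and Car12 (-1.08 ± 0.21). Slc16a7, a monocarboxylate transporter, differed by -1.10 ± 0.33, and Scn4b, a beta subunit of voltage-gated sodium channels, by -1.10 ± 0.41. Asb18, an ankyrin repeat protein with a SOCS box, differed by -1.23 ± 0.37, and the mitochondrial transhydrogenase Adhfe1 by -1.04 ± 0.35. The remaining genes were myocilin Myoc (-1.34 ± 0.45), the secreted protein Lgi1 (-1.22 ± 0.45), the glutathione transferase Gstm7 (-1.04 ± 0.33) and Zp2, a protein known from the coat of the egg (-1.06 ± 0.28). Of the 12, all but Myoc, Lgi1 and Scn4b were among the changed genes in both reduced fits. For every one of the 24 genes, replicate 1 was the sham array nearest to the GA mean at 1 day and replicate 2 at 3 days, whereas at 7 days replicates 1, 2 and 3 were nearest for 3, 9 and 12 of the 24.

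**Figure D3:**
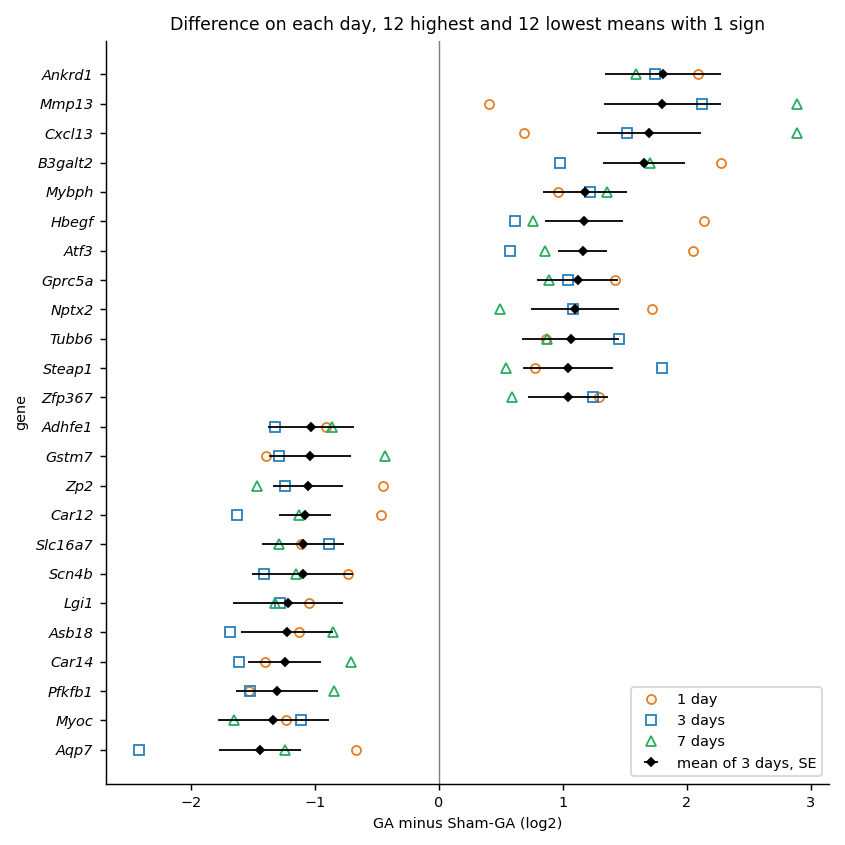
Difference GA minus Sham-GA (log2, x axis) of the 12 genes with the highest and the 12 with the lowest mean difference among genes of 1 sign (y axis): open symbols are the days and black diamonds the mean of 3 days with its SE. The choice of genes fixed the side of 0 on which all symbols lie; Mmp13 spans 0.40 to 2.89, while Mybph spans 0.96 to 1.35.

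The stretches before the transcript start of some of these genes are shown because these genes kept 1 sign over the days. They are the 250 bases upstream of the start in RefSeq's annotation of the build GRCr8. The table used held such a stretch for 8 of the 12 genes of the positive group (not for Ankrd1 or Atf3) and for 9 of the 12 of the negative group (not for Aqp7). Shown are the 2 highest genes with an entry, the negative gene Pfkfb1, the regulator Ppargc1a, and Fabp3, the lowest gene of fatty acid use below. Myoc, with a lower mean difference than Pfkfb1, also had an entry and is not shown. Capitals mark matches on either strand to 6 short motifs, spelled out here. They are the box of promoters known as TATA, searched as TATAAA, and the box bound by NF-Y, searched as CCAAT and called the CCAAT box below. The element bound by TEAD factors, MCAT, was searched as CATTCC. The AP-1 site was searched as TGANTCA with N for any base, the cyclic AMP response element (CRE) as TGACGTCA, and the nuclear receptor half-site as AGGTCA.
Mmp13, chr8:12782579-12782828, plus strand: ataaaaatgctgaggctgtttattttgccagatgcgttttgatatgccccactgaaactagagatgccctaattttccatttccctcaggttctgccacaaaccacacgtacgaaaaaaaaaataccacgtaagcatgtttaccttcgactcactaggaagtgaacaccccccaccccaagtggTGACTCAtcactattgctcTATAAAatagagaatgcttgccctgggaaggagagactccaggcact
Cxcl13, chr14:13917921-13918170, minus strand: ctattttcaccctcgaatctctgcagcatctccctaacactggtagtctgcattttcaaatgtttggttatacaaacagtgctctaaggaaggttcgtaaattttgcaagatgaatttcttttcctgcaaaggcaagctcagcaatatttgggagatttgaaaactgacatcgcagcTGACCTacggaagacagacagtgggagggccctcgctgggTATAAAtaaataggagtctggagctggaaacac
Pfkfb1, chrX:22941926-22942175, plus strand: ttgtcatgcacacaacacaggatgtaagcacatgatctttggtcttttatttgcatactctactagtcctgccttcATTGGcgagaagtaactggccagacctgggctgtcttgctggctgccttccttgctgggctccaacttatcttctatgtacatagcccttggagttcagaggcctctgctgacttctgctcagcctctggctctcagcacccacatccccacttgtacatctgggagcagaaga
Ppargc1a, chr14:63634058-63634307, plus strand: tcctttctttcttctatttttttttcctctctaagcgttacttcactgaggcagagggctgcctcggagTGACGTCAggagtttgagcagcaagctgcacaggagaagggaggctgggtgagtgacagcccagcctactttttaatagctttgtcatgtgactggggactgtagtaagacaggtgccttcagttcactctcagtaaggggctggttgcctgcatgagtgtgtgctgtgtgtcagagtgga
Fabp3, chr5:147935875-147936124, plus strand: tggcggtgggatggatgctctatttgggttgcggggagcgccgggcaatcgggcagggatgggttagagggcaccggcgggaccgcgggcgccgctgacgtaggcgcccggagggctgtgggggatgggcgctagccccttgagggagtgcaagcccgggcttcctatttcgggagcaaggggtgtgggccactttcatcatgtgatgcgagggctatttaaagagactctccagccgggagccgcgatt

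The Mmp13 stretch held an AP-1 site whose first base lies at -66 from the start and a TATA box at -47. The Cxcl13 stretch held a nuclear receptor half-site at -73 and a TATA box at -33, Pfkfb1 held a CCAAT box at -174, Ppargc1a held a CRE at -181, and Fabp3 held none of the 6. The Myoc stretch, not shown, held a CCAAT box at -115 and a TATA box at -26. Over all 27457 such stretches in the table, 6.36% held the AP-1 site, 13.1% the TATA box, 1.7% the CRE, 13.7% the half-site, 11.8% the MCAT element and 34.3% the CCAAT box. In the positive group 1 of 8 held the AP-1 site, 2 the TATA box, 4 the CCAAT box, 1 the MCAT element, 1 the half-site and 0 the CRE. In the negative group 2 of 9 held the TATA box and 3 the CCAAT box, and none held the other motifs. Among 24 genes of fatty acid use with an entry, 6 held the half-site, namely Slc27a1, Acadvl, Echs1, Eci1, Acacb and Ucp3, and 1, Acadm, held the CRE. Of the same 24 genes 8 held the CCAAT box, 4 the MCAT element, 2 the TATA box and 1 the AP-1 site. A match is a run of letters and not a measured site.

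The list with the lowest median held genes that bring fatty acids into the fiber and oxidise them. Of 30 listed genes, all measured, 29 had a lower level after GA on every one of the 3 days and an unadjusted p under 0.05, where 11.3% of all genes had that p on the lower side. The median difference of the 30 genes was -0.64, against -0.01 over all genes tested, and it was -0.52 at 1 day, -0.94 at 3 days and -0.45 at 7 days. Without replicate 2 of Sham-GA 3 days, 21 of the 30 were changed and lower (1.56% of all genes), and without replicate 1 of Sham-GA 1 day, 18 were (1.18% of all genes). No member was changed with all 18 arrays. This and the other lists were written from general knowledge with earlier results of these data known.

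The lowest member was Fabp3, the fatty acid binding protein of heart and slow muscle, at -0.94 ± 0.20. Its level was 10.87, 11.18 and 11.35 after GA against 11.06, 12.26 and 11.85 at 1 day, and 11.06, 11.13 and 9.73 against 12.32, 11.71 and 12.20 at 3 days. At 7 days it was 11.70, 11.14 and 11.03 against 12.35, 12.13 and 11.78. The GA and sham groups of Fabp3 overlapped only at 1 day, where sham replicate 1 fell among the GA arrays. Acsl1, which activates long-chain fatty acids, differed by -0.90 ± 0.27 and Cpt2, which hands them to beta-oxidation inside the mitochondrion, by -0.78 ± 0.19. Acacb, whose product restrains entry into the mitochondrion, was also lower, at -0.84 ± 0.25, as was the uncoupling protein Ucp3, at -0.86 ± 0.30. Slc27a1, a fatty acid transporter of the surface membrane, differed by only -0.48 ± 0.11, yet its GA arrays lay below all sham arrays on each of the 3 days. The sole member with a positive mean was Cpt1a, the liver form of carnitine palmitoyltransferase, at 0.17 ± 0.22, and its difference did not keep 1 sign.

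Subunits of the respiratory chain and ATP synthase showed the same sign with smaller differences. All 59 measured subunits had a negative mean difference, 49 of them on every day (20.8% of all genes), and 50 had an unadjusted p under 0.05 (11.3% of all genes). The median was -0.32, and the members ran from -0.51 for Sdha, the flavoprotein of succinate dehydrogenase, to -0.15 for Uqcrb of complex III. Sdhd, a membrane anchor of succinate dehydrogenase, differed by -0.51 ± 0.13. Because the members differed by less than the 1.5 fold minimum, few of them were changed in the reduced fits, 3 and 1, where 1.56% and 1.18% of all genes were changed and lower. Genes of pyruvate dehydrogenase and the citric acid cycle had a median of -0.35, with 22 of 24 below 0 and 18 below 0 on every day (20.8% of all genes), and 3 members were changed and lower in each reduced fit, with Pdk3 changed and higher in the first of them. Their ends were Pdk2 at -0.69 ± 0.22 and Pdk3 at 0.53 ± 0.26, both kinases that switch pyruvate dehydrogenase off, so that members of the same function had opposite signs.

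Ppargc1a differed by -0.98 ± 0.22 (1.97 fold lower) with a nearly even course of -0.84, -1.19 and -0.91. Its level was 7.26, 7.68 and 7.19 after GA against 7.56, 9.05 and 8.05 at 1 day, 7.38, 8.07 and 6.91 against 8.98, 7.93 and 9.02 at 3 days, and 8.21, 8.12 and 7.47 against 8.92, 8.53 and 9.06 at 7 days. The groups were fully apart at 7 days only, and the limma adjusted p was 0.166 with all arrays, 0.027 without replicate 2 of Sham-GA 3 days and 0.032 without replicate 1 of Sham-GA 1 day. In the list of 16 PGC-1 partners and mitochondrial regulators, 3 and 1 were changed and lower in the reduced fits (1.56% and 1.18% of all genes). Of the 16, 8 had an unadjusted p under 0.05 and all of these were lower (11.3% of all genes). Beside Ppargc1a they included Perm1, a muscle regulator of the same network (-1.01 ± 0.33), the fatty acid receptor Ppara (-0.73 ± 0.26) and the orphan receptor Esrrg (-0.64 ± 0.24). Nrf1, a factor for respiratory chain genes, differed by 0.09 ± 0.08, and Gabpa, another such factor, by 0.05 ± 0.07.

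Glycolysis and glycogen genes leaned lower, with 26 of 32 below 0 and a median of -0.28. On every day 18 were lower and 3 higher (20.8% and 16.5% of all genes). At an unadjusted p under 0.05, 14 were lower and 1 higher (11.3% and 7.96% of all genes). In the reduced fits 6 and 4 were changed and lower (1.56% and 1.18% of all genes). Beside Pfkfb1 the low members were Phkg1, the catalytic subunit of phosphorylase kinase (-0.99 ± 0.31), the muscle phosphofructokinase Pfkm (-0.68 ± 0.19) and the insulin-responsive glucose transporter Slc2a4 (-0.63 ± 0.22). At the other end stood hexokinase Hk1 at 0.42 ± 0.17 and the basal glucose transporter Slc2a1 at 0.42 ± 0.25. The list therefore held genes of uptake on both sides of 0.

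Contractile genes were measured next. Of 16 slow-twitch fiber genes, 13 had a negative mean difference with a median of -0.14. In each reduced fit 2 were changed and lower (1.56% and 1.18% of all genes). The lowest was phospholamban Pln, the brake on the calcium pump of slow fibers, at -0.89 ± 0.20. Its GA arrays at 7 days, 6.07, 5.94 and 6.09, lay below the sham arrays at 7.20, 7.24 and 6.98. The 14 fast-twitch genes had a median of 0.28 with standard errors of up to 0.59, that of Myh2 (1.05 ± 0.59). On every day 6 were higher and 1 lower (16.5% and 20.8% of all genes). At an unadjusted p under 0.05, 2 were higher and 0 lower (7.96% and 11.3% of all genes). The 2 were Tpm1 (0.58 ± 0.25) and Myl11 (0.67 ± 0.31). The 8 markers of fast muscle such as the plantaris were spread widely between arrays, with a mean deviation from the 18-array mean of -1.54 to 0.78 in GA 1 day and of -0.64 to -0.11 in its sham group. Their part in the other results was not tested. The 15 stretch-responsive and Z-disc genes had a median of 0.06, with 9 above and 6 below 0. Of the 15, 7 were higher and 2 lower on every day (16.5% and 20.8% of all genes). At an unadjusted p under 0.05, 5 of them were higher and 1 lower (7.96% and 11.3% of all genes). In each reduced fit 1 was changed, and it was higher (1.85% and 1.20% of all genes). Beside Ankrd1, the muscle LIM protein Csrp3 differed by 0.53 ± 0.11, Lmcd1 by 0.62 ± 0.20 and Xirp2 by 0.34 ± 0.10, whereas Myot differed by -0.28 ± 0.11.

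**Figure D4:**
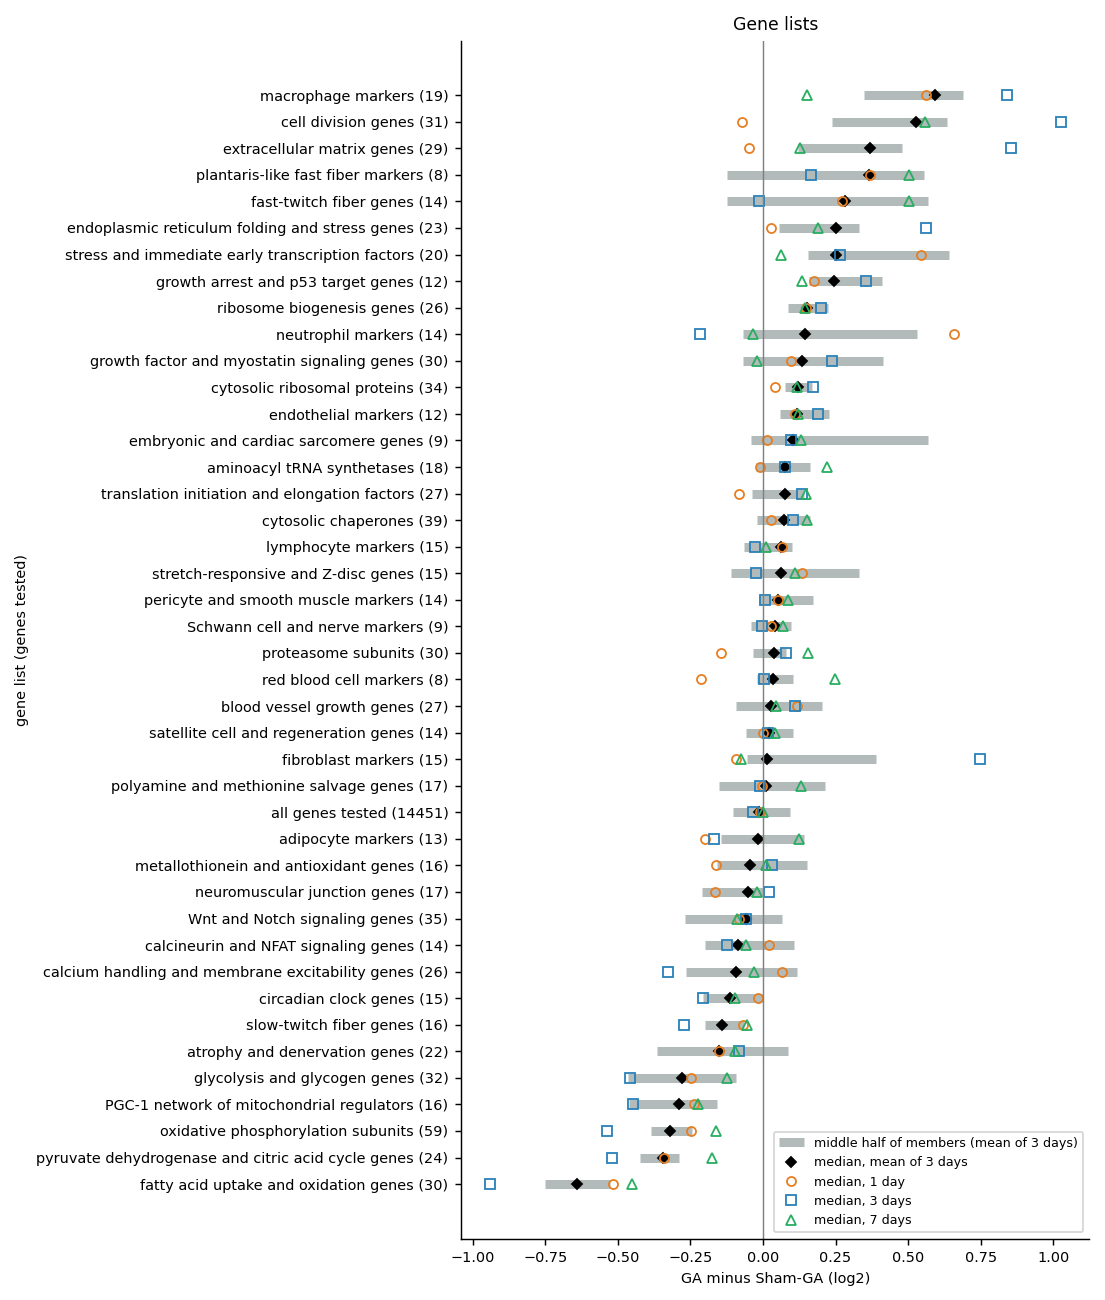
Median difference GA minus Sham-GA (log2, x axis) of each gene list and of all genes tested (y axis, number of genes in brackets): black diamonds are the mean of 3 days, open symbols the days, and grey bars the span from the lower to the upper quartile of the members. Fatty acid genes lie lowest at -0.64 and macrophage markers highest at 0.59, while all genes together lie at -0.01.

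Immediate early and stress transcription factors lay above 0, with their highest list median at 1 day. Of 20 members, 18 had a positive mean, 10 were higher on every day (16.5% of all genes), and 11 had an unadjusted p under 0.05 (7.96% of all genes on that side). The list medians were 0.55, 0.26 and 0.06 on successive days. Fos, a subunit of AP-1, differed by 1.02 ± 0.31 and its partner Junb by 0.68 ± 0.15. The levels of Fos at 1 day were 10.74, 8.92 and 10.41 after GA against 9.42, 7.81 and 7.27, so that a sham array again lay within the GA range. Egr1 differed by 0.83 ± 0.20, Myc by 0.64 ± 0.22 and the AP-1 member Fosl1 by 0.66 ± 0.26, whereas Jun itself differed by 0.07 ± 0.11. In the reduced fits 4 and 6 of the 20 were changed, all higher, where 1.85% and 1.20% of all genes were changed and higher.

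At 1 day alone, 8 genes were changed with all 18 arrays (0.0554%), all of them higher after GA. They were the potassium channel Kcnk10 at 1.39, the transcription factors Atf3 at 2.05 and Egr3 at 0.95, the matricellular protein Ccn1 at 1.68, Ier5 at 1.20, Tex10 at 1.07, Asb5 at 0.99 and Nudt4 at 0.94. On the mean of 3 days these genes differed by between 0.25 for Asb5 and 1.16 for Atf3. Of the 8, the difference kept 1 sign on every day for Atf3, Ccn1, Ier5, Kcnk10 and Tex10, and did not for Asb5, Egr3 and Nudt4. No gene was changed at 3 days (0%) or at 7 days (0%), with a lowest limma adjusted p of 0.288 and 0.999. Of the 14451 genes, 2383 at 3 days, 380 at 7 days and 1978 at 1 day had an unadjusted p under 0.05. Of the 18 fits that leave out 1 array, 13 gave at most 2 genes at 1 day, among them those without replicate 1 or 3 of GA 1 day or replicate 2 or 3 of Sham-GA 1 day, and the fit with the replicate block gave 1. Leaving out replicate 2 of GA 1 day gave 50. Without replicate 2 of Sham-GA 3 days the count at 3 days was 1286, and without replicate 1 of Sham-GA 1 day the count at 1 day was 182. The test for a difference between the days found no gene with an adjusted p under 0.05 (0%), with a lowest value of 0.261 for Kcnk10, and 1011 genes with an unadjusted p under 0.05. Across the 14451 genes the differences at 1 and 3 days correlated with r = 0.38, those at 1 and 7 days with r = 0.19 and those at 3 and 7 days with r = 0.61, as a description over genes, which are not independent replicates.

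S100a9, a calcium-binding protein of neutrophils, had its difference mainly at 1 day. It was 2.12 at 1 day, -0.37 at 3 days and -0.02 at 7 days, with a mean of 0.57 ± 0.34 (limma adjusted p 0.362). Without replicate 1 of Sham-GA 1 day its mean was 0.90 with an adjusted p of 0.035, which made it a changed gene, and without replicate 2 of Sham-GA 3 days it was 0.62 with 0.272. Its level at 1 day was 9.68, 7.97 and 9.11 after GA against 8.74, 6.17 and 5.50, so that a sham array lay between the GA arrays. Of 14 neutrophil markers only Csf3r and Lcn2 were higher on every day (16.5% of all genes). In the reduced fits 1 and 3 of the 14 were changed and higher (1.85% and 1.20% of all genes). The list median was 0.66, -0.22 and -0.03 on successive days. The mean deviation of the neutrophil list at 1 day was 0.37 to 1.39 in GA and -0.40 to 0.92 in the sham group, whose highest value was that of replicate 1.

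Macrophage markers had the highest median of all lists, 0.59, with medians of 0.56, 0.84 and 0.15 on successive days. All 19 had a positive mean difference, 16 were higher on every day (16.5% of all genes), and 6 had an unadjusted p under 0.05 (7.96% of all genes). In the reduced fits 2 and 3 were changed, all higher, where 1.85% and 1.20% of all genes were. Among the 19 markers, the mannose receptor Mrc1 differed by 0.68 ± 0.25 and was changed in both reduced fits. The signaling adaptor Tyrobp differed by 0.75 ± 0.33, Ms4a7 by 0.76 ± 0.31 and the chemokine receptor Ccr2 by 0.71 ± 0.33. The complement gene C1qb differed by 0.01 ± 0.16. The mean deviation of the list was 0.55 in replicate 1 of Sham-GA 1 day and 0.57 in replicate 2 of Sham-GA 3 days, against -1.02 to -0.50 in the other sham arrays of these days and -0.14 to 0.80 in the GA arrays of 1 and 3 days. The same sham arrays were low for the fatty acid list, at -0.28 and -0.04, where their group mates lay between 0.57 and 0.79. At 7 days the mean deviation of the macrophage list was -0.085 to 0.381 in GA and -0.663 to 0.397 in the sham group, so the groups overlapped. The part of macrophage content in the other differences was not tested.

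**Figure D5:**
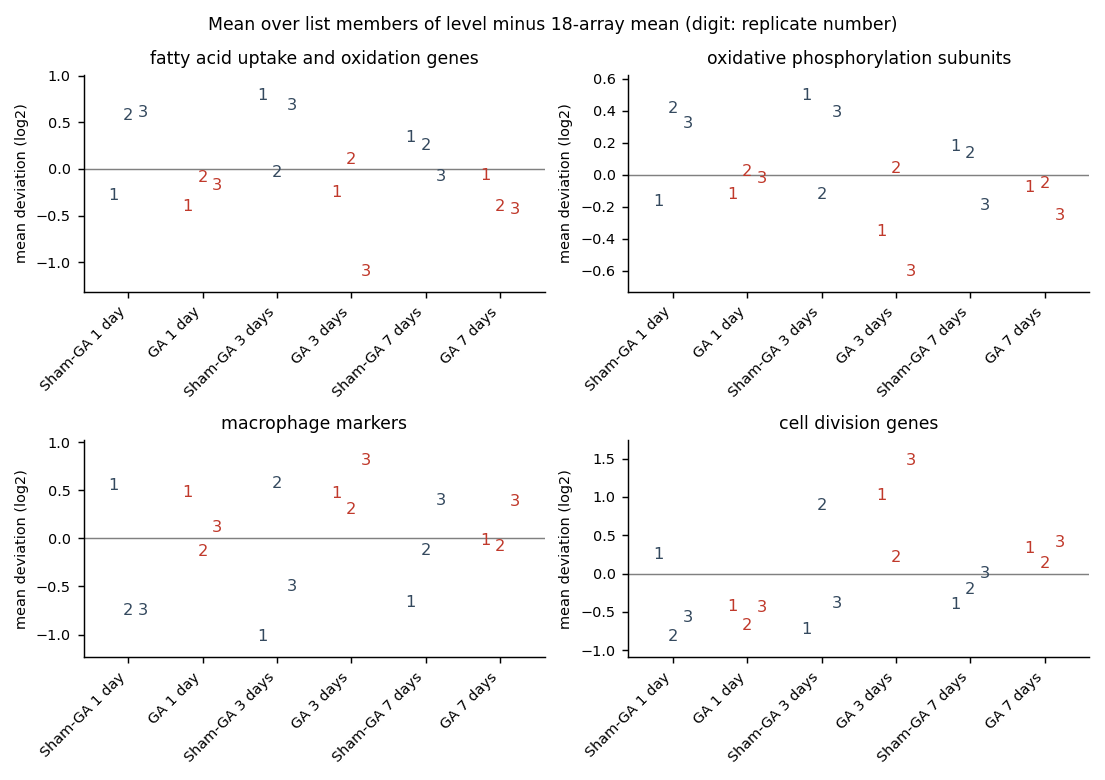
Mean over the members of 4 gene lists of the log2 level minus its mean over the 18 arrays (y axis), by group (x axis); each digit is an array, shown by its replicate number (red, GA; dark blue, Sham-GA). Replicate 1 of Sham-GA 1 day and replicate 2 of Sham-GA 3 days lie apart from their group mates in all 4 panels.

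Cell division genes lay near 0 at 1 day and above 0 later. The list median of 31 genes was -0.07 at 1 day, 1.03 at 3 days and 0.56 at 7 days, with a mean over days of 0.53, and 12 members had an unadjusted p under 0.05, all higher (7.96% of all genes). Only 9 kept 1 sign on every day, all of them higher (16.5% of all genes). Rrm2, a subunit of ribonucleotide reductase, differed by 0.93 ± 0.43 and topoisomerase Top2a by 0.79 ± 0.35. At 3 days the level of Rrm2 was 9.50, 8.23 and 10.25 after GA against 6.21, 9.52 and 7.01, so that 1 sham array was as high as GA arrays; without that array 15 of the 31 genes were changed and higher (1.85% of all genes), and without replicate 1 of Sham-GA 1 day 1 was (1.20%). E2f8, a repressor of the E2F family that acts in the cell cycle, was outside this list and differed by 0.60 ± 0.12, with all GA arrays above all sham arrays on each day.

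Extracellular matrix genes had a median of 0.37, which came mostly from 3 days (0.85, against -0.05 at 1 day and 0.13 at 7 days). Of 29 genes, 8 were higher on every day (16.5% of all genes). They included lysyl oxidase Lox, which crosslinks collagen (0.89 ± 0.32), the metalloproteinase inhibitor Timp1 (0.63 ± 0.24) and fibronectin Fn1 (0.53 ± 0.23). Lox at 3 days was 11.62, 10.79 and 11.80 after GA against 8.23, 11.44 and 9.15. Again 1 sham array was within the GA range, and 12 of the 29 genes were changed and higher without it (1.85% of all genes), but 0 without replicate 1 of Sham-GA 1 day. The 15 fibroblast markers had a median of 0.02 over the days and 0.75 at 3 days. In the reduced fits 3 and 0 of them were changed and higher (1.85% and 1.20% of all genes).

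Among genes of protein synthesis, the ribosomal lists lay slightly above 0. Of 34 cytosolic ribosomal proteins, 32 had a positive mean and 24 were higher on every day (16.5% of all genes), with a median of 0.12, and the highest was Rpl3 at 0.48 ± 0.19. Of 26 ribosome biogenesis genes, 23 had a positive mean and 15 were higher on every day, with a median of 0.15, led by the nucleolar proteins Nop58 (0.38 ± 0.12) and Gnl3 (0.33 ± 0.11). Translation initiation and elongation factors were mixed, with 16 of 27 above 0, a median of 0.08 and a median at 1 day of -0.08. On every day 6 of them were higher and 5 lower (16.5% and 20.8% of all genes). Folding genes of the endoplasmic reticulum had a median of 0.25, with the chaperone Hspa5 at 0.35 ± 0.14, whereas Herpud1, which serves degradation there, stood at -0.36 ± 0.10. None of these lists held more than 1 changed gene in either reduced fit, since few of their members differed by 1.5 fold.

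Genes known from muscle wasting and loss of the nerve leaned lower, with 16 of 22 below 0 and a median of -0.15, but held members on both sides. The ubiquitin ligases Fbxo32 and Trim63, both markers of atrophy, differed by -0.81 ± 0.26 and -0.47 ± 0.21, and the receptor subunit Chrna1 by -0.67 ± 0.22. By contrast Runx1, a transcription factor induced by denervation, differed by 0.79 ± 0.18, and the adhesion molecule Ncam1 by 0.59 ± 0.18. Runx1 was 10.46, 10.15 and 10.59 at 7 days after GA against 9.70, 9.92 and 10.07. Of the 22 genes, 11 were lower and 5 higher on every day (20.8% and 16.5% of all genes). At an unadjusted p under 0.05, 8 were lower and 2 higher (11.3% and 7.96% of all genes). In the reduced fits 2 and 2 were changed and higher (1.85% and 1.20% of all genes), and 3 and 1 changed and lower (1.56% and 1.18%).

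All 3 GA arrays lay on one side of all 3 sham arrays on every day for 14 genes, 4 higher (0.0277%) and 10 lower (0.0692%). The higher genes were E2f8, the fucosyltransferase Fut4, the coenzyme Q kinase Coq8b and the translation factor Eif4g2. Besides Slc27a1, the lower genes included Abhd1, an alpha/beta hydrolase (-0.88 ± 0.17), Dmac2, an assembly factor of the respiratory chain (-0.49 ± 0.10), and Pptc7, a mitochondrial phosphatase (-0.43 ± 0.10). The level of Abhd1 was 6.77, 6.57 and 6.60 after GA against 7.07, 8.38 and 8.30 at 1 day, 7.26, 7.28 and 6.80 against 8.35, 7.49 and 7.88 at 3 days, and 7.43, 6.98 and 6.99 against 7.59, 8.03 and 7.51 at 7 days. The other 6 lower genes, Antkmt, Nme3, Or6c69b, Pxmp4, Rab11b and Rdh13, differed by between -0.30 and -0.20. These 14 genes were also named after their values were seen, and 2 of them, Abhd1 and E2f8, were at least 1.5 fold apart on average.

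Finally, the same genes were read in the ES experiment, which used other animals. Those female Wistar rats had the spinal cord cut at 9 weeks of age, are marked in the labels as having GA as well, and had ES for 1, 3 or 7 days from 16 weeks after transection. The SCI controls carry the same GA mark and had no ES. The mean ES effect over the days, SCI-ES minus SCI, changed 0 of 14456 genes (0%), with 304 at an unadjusted p under 0.05. Of the 148 genes that were higher on every day after GA, with an unadjusted p under 0.05 and at least 1.5 fold, 94 had a positive mean ES difference, and their median was 0.04. Of the 176 lower genes chosen likewise, 107 had a positive and 69 a negative mean ES difference, with a median of 0.06. Of all 14456 genes, 7407 had a positive mean ES difference. None of the 24 named genes had an unadjusted p under 0.05 for ES. Ankrd1 differed by 0.15 ± 0.73 after ES against 1.81 ± 0.47 after GA, and Aqp7 by -0.00 ± 0.56 against -1.45 ± 0.33. Ppargc1a differed by -0.05 ± 0.29 against -0.98 ± 0.22. The ES errors of Ankrd1 and Aqp7 are too wide to call their ES effects absent. The fatty acid list had a median of 0.08 after ES, with 22 of 30 members positive, against -0.64 after GA, and the subunits of oxidative phosphorylation had 56 of 59 positive with a median of 0.14, against -0.32. Whether ES and GA had unlike effects was not tested, and the animals differed in age, spinal surgery and time since the insertion was cut.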

How the data were processed

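RNA of the soleus of 33 rats was hybridised to Affymetrix arrays, 1 array an animal. The authors deposited a series table of log2 values, made with RMA in the oligo package per the submitters' processing notes, whose versions are not given in the sources used here. RMA subtracts background, forces arrays to 1 distribution and sums probes per transcript cluster, so levels of different genes are not comparable and low values are compressed. Array medians ran from 6.45 to 6.54. Of 29214 rows, 15310 carried 1 gene symbol, and 14506 genes remained when 1 row was kept per gene. Genes with a mean log2 value of at least 3 over the 18 arrays were tested, which left 14451. limma 3.58.1 in R 4.3.3 was fitted to 6 groups, the mean of the within-day differences was tested 2-sided with Benjamini-Hochberg adjustment over all genes, and the scripts were tested on simulated data. A changed gene had an adjusted p under 0.05 and at least 1.5 fold.

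Genes to be named were the 12 highest and 12 lowest changed genes of 1 sign, with changed members and both ends of each gene list, and Ankrd1, Atf3, S100a9 and Ppargc1a, which the study names for GA. Since no gene was changed, the first of these was filled by unadjusted p, and list members without a call are named as descriptions. The members and the 41 lists were chosen with earlier results of these data known. Of 950 listed names 864 matched a tested gene. The number of arrays, 3 a group, limits the precision, and the p-values measure the spread between these animals. Alternatives covered normalization, filters, weights, other fits and each array left out. Promoter sequences were read from RefSeq.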

Additional observations from a re-analysis of the deposited data

Results flagged for a closer look

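Asb5, a SOCS box protein of muscle, stood out because its GA effect had opposite directions on separate days. Its GA minus Sham-GA difference was 0.99 on the log2 scale at 1 day, with all 3 GA arrays above all sham arrays, and -0.26 at 7 days, with all 3 GA arrays below all sham arrays. It was 0.02 at 3 days. The limma test of a difference between the days gave an adjusted p of 0.598, so the change of direction did not pass the test. Its mean over the days was 0.25 ± 0.09.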

How the results depend on the processing

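The count of genes changed in the mean effect, 0 of 14451, ran from 0 to 493 when each array was left out in turn, and that of changed genes with 1 sign from 0 to 428. The counts ran from 1 to 182 at 1 day, 0 to 1286 at 3 days and 0 to 0 at 7 days, that of genes differing between days from 0 to 2, and that of the ES effect from 0 to 0. One fit of all 33 arrays gave 5 genes in the mean, 5 with 1 sign, 81 at 1 day and 1 differing between days. Array quality weights gave 963 in the mean (597 higher, 366 lower), 852 with 1 sign, 1639 at 1 day, 2585 at 3 days and 3643 differing between days. These weights, from 0.27 to 5.26 with 0.27 and 0.29 for the sham arrays that stood apart, came from an estimate that stopped before its tolerance. The 8 genes at 1 day became 13 after quantile normalization, 5 with a 2 fold minimum, 1 with the replicate block and 0 in a fit of only the groups compared, which gave 1 gene at 7 days. The methods' 2-factor test gave 534, 678 and 158 genes at 1, 3 and 7 days unadjusted, and 0, 0 and 0 after Benjamini-Hochberg. The cause of these shifts was not tested. Deviations of same-numbered arrays correlated between -0.718 and 0.612. These few values, in groups of 3, cannot show whether replicate numbers pair the animals, and the main fit used no pairing. S100a9 turned to -0.20 when 1 day was left out. Of 883 values of the 26 named genes, 811 kept their side of the threshold, 71 became changed and 1 reversed. Of 408 list medians, 407 moved by less than the spread, and that of ribosomal proteins moved to 0.25 among the more variable genes. A group of 3 arrays limits which differences can pass.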

Other observations

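Further gene groups had medians between -0.11 and 0.24. Of 30 genes of growth factor and myostatin signaling, 9 were higher and 6 lower on every day, where 16.5% and 20.8% of all genes were, with a median of 0.13. In each of the fits without a sham array that stood apart 4 were changed and higher, where 1.85% and 1.20% of all genes were. Of 26 genes of calcium handling and excitability, 6 were higher and 8 lower on every day with a median of -0.09, between Pln at -0.89 and Kcnk10 at 0.52. Of 14 calcineurin and NFAT genes, 5 were lower and 1 higher on every day, between the calcineurin regulators Rcan2 at -0.88 and Rcan1 at 0.25. Wnt and Notch genes had a median of -0.06, with 12 of 35 lower and 2 higher on every day, between the Wnt antagonists Dkk2 at -0.74 and Sfrp1 at 0.49. Neuromuscular junction genes ran from Colq, which anchors acetylcholinesterase, at -0.69 to the neuregulin receptor Erbb3 at 0.85, with a median of -0.05 over 17 genes.

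Proteasome subunits had a median of 0.04 over 30 genes, cytosolic chaperones 0.07 over 39, aminoacyl tRNA synthetases 0.08 over 18, and blood vessel growth genes 0.03 over 27. Growth arrest and p53 target genes had a median of 0.24 with 9 of 12 higher on every day (16.5% of all genes), among them Gadd45g at 0.66. Clock genes had a median of -0.11 with 6 of 15 lower on every day (20.8% of all genes) and none higher. Of 12 endothelial markers, 7 were higher on every day with a median of 0.12, and the 15 lymphocyte and 13 adipocyte markers had medians of 0.06 and -0.02. None of these lists held a changed gene in the mean effect with all 18 arrays.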
